A study of Homo sapiens with 10 samples.

Results

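COV362 and COV504, 2 established human ovarian cancer cell lines, were compared directly, each through its single library from the PromethION, a nanopore instrument that reads single nucleic acid strands and can span a transcript in one read. These are 2 of the 10 libraries of a series made to benchmark transcript quantification from long reads across 7 ovarian cancer lines. The 2 PromethION libraries of IGROV-1, another ovarian cancer line, served as the replicate background. The labels name no treatment, genotype, passage or tumour of origin for any line, so the groups differ by line only as far as the labels tell. Neither COV line has a replicate, and nothing in the labels says whether the IGROV-1 replicates came from separate cultures, so their spread may be technical. The COV362 library held 2552499 counts and the COV504 library 2247659, against 2341102 and 2328087 in the IGROV-1 libraries. Levels are counts per 1000000 counts of the library (CPM), and a count of 0 allows up to 3 counts, or 1.18 CPM in COV362 and 1.33 CPM in COV504.

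Ovarian carcinoma lines carry marks of the Muellerian epithelium, such as the transcription factor PAX8, and differ in how far they keep an epithelial programme of cadherin junctions, claudins and keratins. They differ as well in loss of cell cycle brakes, in secretion of chemokines and proteases, and in use of alternative promoters and exons, which a long read can assign to a transcript. PAX8 stood at 137 CPM in COV362 and 91.7 CPM in COV504, with 211 and 134 CPM in the IGROV-1 libraries, and did not pass the test between the COV lines (edgeR adjusted p = 0.12). EPCAM, an epithelial adhesion molecule, stood at 158 CPM in COV362 and 365 CPM in COV504, with 0.854 CPM or less in IGROV-1. WT1, a marker of mesothelium and of serous tumours, had 1 count in COV362 and 0 in COV504, so this defining gene was at the detection floor in both lines. Markers of other cell types were summed as lists. The 15 leukocyte markers that could be matched summed to 4.31 CPM in COV362 and 7.12 CPM in COV504, with CD3D, CD3E and CD2 at 0 in both. The fibroblast genes DCN, LUM, FAP and PDGFRB were at 0.445 CPM or less in both lines, but the 12 matched fibroblast markers summed to 654 and 676 CPM. Much of that sum was COL1A2 and THY1 in COV362 (THY1 at 157 against 65.4 CPM in COV504) and PDPN in COV504. The 12 endothelial markers summed to 38.8 CPM in COV362 and 74.3 CPM in COV504, with ENG at 19.98 and 42.3 CPM, CDH5 at 7.05 and 24.9 CPM, and VWF at 0 in both. The 10 mesothelial markers summed to 88.9 and 115 CPM. The part of other cell types in the results was not tested.

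The genes MEST, PARP2, ADAM15 and TSPAN3, which used different transcripts in the 2 lines, are shown first by the coding segment that one transcript has and the other lacks. Capitals mark that segment, lower case marks adjoining coding bases of the same transcript, and all are written 5′ to 3′ on the gene's strand from GENCODE 29 on GRCh38. MEST, an imprinted gene of the hydrolase fold family, is shown by 26 coding bases that open ENST00000223215 at chr7:130492314-130492339 on the plus strand. PARP2, a DNA-break sensing polymerase of poly(ADP-ribose), is shown by 39 coding bases of ENST00000250416 at chr14:20345088-20345126 on the plus strand, which are 13 codons. ADAM15, a membrane metalloprotease with a signalling tail, is shown by 70 coding bases of ENST00000271836 at chr1:155060763-155060832 on the plus strand. TSPAN3, a tetraspanin of the cell surface, is shown by 192 coding bases of ENST00000267970 at chr15:77056064-77056255 on the minus strand, which are 64 codons.
MEST: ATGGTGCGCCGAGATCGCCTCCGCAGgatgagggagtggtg
PARP2: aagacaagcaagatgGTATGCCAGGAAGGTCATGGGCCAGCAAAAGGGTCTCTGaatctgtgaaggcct
ADAM15: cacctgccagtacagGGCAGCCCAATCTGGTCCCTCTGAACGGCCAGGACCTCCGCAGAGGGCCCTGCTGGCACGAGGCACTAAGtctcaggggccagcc
TSPAN3: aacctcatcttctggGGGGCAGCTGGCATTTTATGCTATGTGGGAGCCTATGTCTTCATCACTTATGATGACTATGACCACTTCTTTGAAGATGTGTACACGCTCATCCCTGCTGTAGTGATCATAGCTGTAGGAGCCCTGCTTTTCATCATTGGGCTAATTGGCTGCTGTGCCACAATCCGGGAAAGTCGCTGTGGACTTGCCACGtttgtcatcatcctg

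Most genes lay within 2-fold in the 2 lines, but fewer than between the IGROV-1 replicates. Among 10868 genes at 5 CPM or more in either library, 7507 (69.1%) lay within 2-fold on the log2(CPM + 1) scale. Between the IGROV-1 replicates 9501 of 9695 genes (98.0%) did so. The Spearman correlation was 0.81 for the COV lines and 0.97 for the replicates, given as a description because genes are not independent. A difference of 4-fold or more on that scale was found for 950 genes (8.74%), of which 436 (4.01%) were higher in COV362 and 514 (4.73%) higher in COV504. The same count between the IGROV-1 replicates gave 8 of 9695 genes (0.0825%). The median log2 ratio of COV362 over COV504 was -0.12 over these genes, and scaling by TMM factors brought it to 0.01 and turned the split to 500 higher in COV362 and 450 higher in COV504. Between the 20 other pairs of lines, each taken from 1 PromethION library, the count of 4-fold genes ran from 1450 to 2451, so the COV lines were the closest of the 21 pairs by this count.

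**Figure D1:**
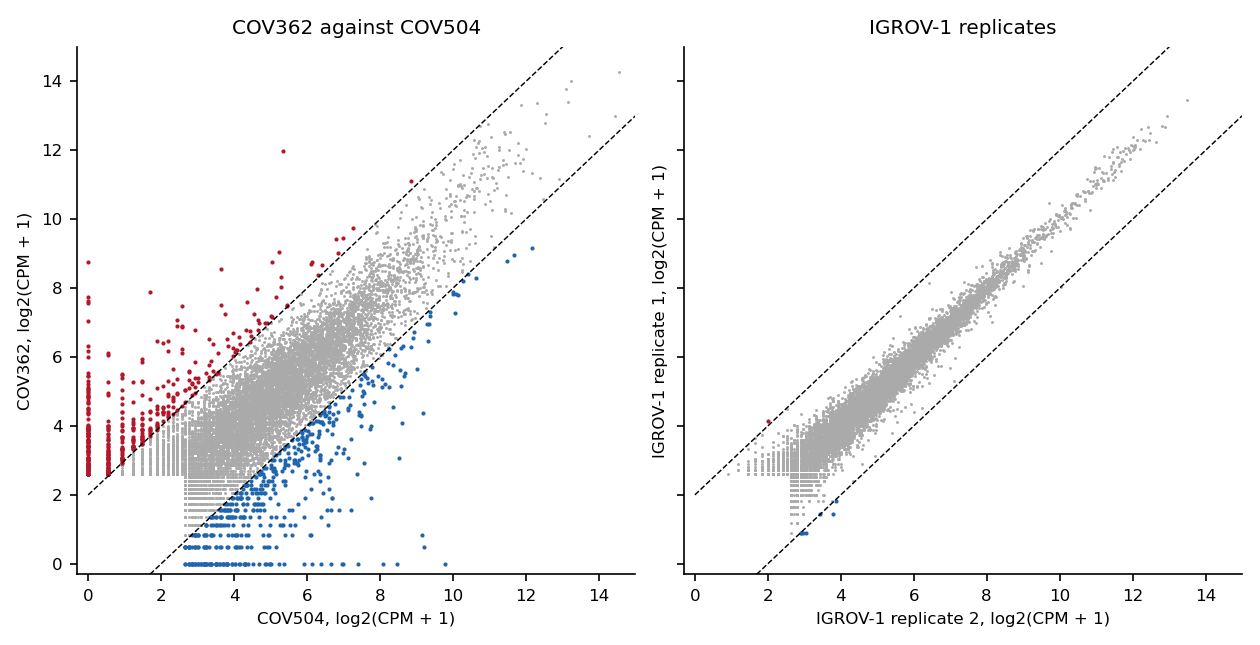
Levels of genes tested by edgeR and at 5 CPM or more in either library of the pair (Y-linked genes and XIST not drawn), as log2(CPM + 1), for COV362 against COV504 (left) and for the 2 IGROV-1 PromethION replicates (right). Dashed lines mark 4-fold, and red and blue points lie beyond them: 950 genes passed 4-fold between the COV lines, of which 943 were tested, and 8 between the replicates.

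The edgeR quasi-likelihood test called 3286 of 13030 genes (25.2%) at an adjusted p under 0.05, 1587 higher in COV362 and 1699 higher in COV504. Its spread comes from the IGROV-1 replicate pairs, with 2 residual degrees of freedom, and the COV libraries are assumed to vary like them. Of the 950 genes past 4-fold, 943 were tested and 897 were called. The count of calls depended on the libraries that supply the spread: it was 583 without IGROV-1 MinION replicate 1, 1656 without MinION replicate 2 and 0 when the fit held only COV362, COV504 and the IGROV-1 PromethION pair. In that fit of 4 libraries 4247 genes had an unadjusted p under 0.05, and DESeq2 on all 10 libraries called 546. For this reason gene groups are counted below by the 4-fold rule, and edgeR's adjusted p stands beside single genes. For the interferon-stimulated genes and the lineage factors the edgeR calls are given as well, beside those over all genes.

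The genes highest in COV362 over COV504 often had no count in COV504. CDKN2A, which encodes the cell cycle inhibitors p16 and p14ARF, stood at 434 CPM in COV362, 0 in COV504, and 62.4 and 75.6 CPM in the IGROV-1 replicates. COV504 had no count for it, so COV362 was at least 326-fold higher (edgeR adjusted p = 1.0e-04). Both transcript classes of this locus were present in COV362, with 596 counts for ENST00000304494, which starts at the proximal first exon, and 497 for ENST00000579755, which starts at the distal one. Other genes of this group with 0 counts in COV504 included MGST1, a microsomal glutathione transferase, at 214 CPM in COV362; PNOC, the nociceptin precursor, at 195 CPM; CHRDL1, a BMP antagonist, at 190 CPM (189.6); and CPE, a prohormone processing enzyme, at 132 CPM. MGST1, PNOC and CHRDL1 were at 0 in both IGROV-1 libraries too, while CPE had 3.42 and 7.30 CPM there. XBP1, the transcription factor of the unfolded protein response, had 70.9 CPM in COV362 and 0 in COV504, while the IGROV-1 libraries held 103 and 96.7 CPM. HMGN5, a nucleosome-binding protein, and NLGN4X, a neuronal adhesion molecule, followed the same order, with 79.1 and 63.1 CPM in COV362, 0 in COV504 and 68.3 to 94.4 CPM in IGROV-1. S100A4, a calcium-binding protein linked to cell motility, was the most abundant of the 12, with 4011 CPM in COV362, 39.2 CPM in COV504, and 846 and 719 CPM in IGROV-1. That is a 102-fold ratio of the COV lines with a 95% counting interval of 83.1 to 127.8 (edgeR adjusted p = 5.8e-05). SNCG, a synuclein, was 105-fold higher in COV362 (234.7 CPM against 2.22 CPM, interval 45.0 to 326). The last 2 of the 12 were ACTC1, cardiac actin, at 68.9 CPM in COV362 with 1 count in COV504, and NDN, an imprinted gene, at 45.4 CPM with 0 counts.

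The genes highest in COV504 were led by CEACAM6, a cell surface adhesion molecule of epithelia, at 880.5 CPM in COV504 and 0 in COV362 and both IGROV-1 libraries, at least 749-fold higher than in COV362 (edgeR adjusted p = 1.3e-04). CALB1, a calcium buffer, had 586 CPM in COV504 and 1 count in COV362. MAGEA4, a cancer testis antigen, had 352 CPM in COV504 and 0 in COV362 and in IGROV-1. CXCL14, a chemokine, had 568 CPM in COV504 and 2 counts in COV362, with 22.6 and 39.5 CPM in IGROV-1. LCP1, an actin bundling protein first known from leukocytes, had 271 CPM in COV504 and 0 in COV362. The leukocyte markers summed to 7.12 CPM in COV504 and 4.31 CPM in COV362. SCG2, a secretogranin, CDH13, a cadherin without a cytoplasmic tail, KRT5, a basal keratin, LDOC1 and SOSTDC1, a BMP and Wnt antagonist, stood between 59.6 and 166 CPM in COV504 and at 0 counts in COV362. CDO1, cysteine dioxygenase, was 78.0-fold higher in COV504 (214 against 2.74 CPM), and ERAP2, a peptide-trimming enzyme of antigen presentation, 74.95-fold (147 against 1.96 CPM). In all, 65 genes at 10 CPM or more in COV362 had 0 counts in COV504 and 48 had the reverse, whereas no gene did so between the IGROV-1 replicates in either direction. The 24 genes named by rank were chosen among called genes, and each alternative fit reuses the same COV libraries, so the fits are no separate check. All 24 genes named here by rank were called in each alternative edgeR fit except the fit of 4 libraries, which called 0 of them with adjusted p up to 0.0874, and DESeq2 called 22 and gave no adjusted p for 2.

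**Figure D2:**
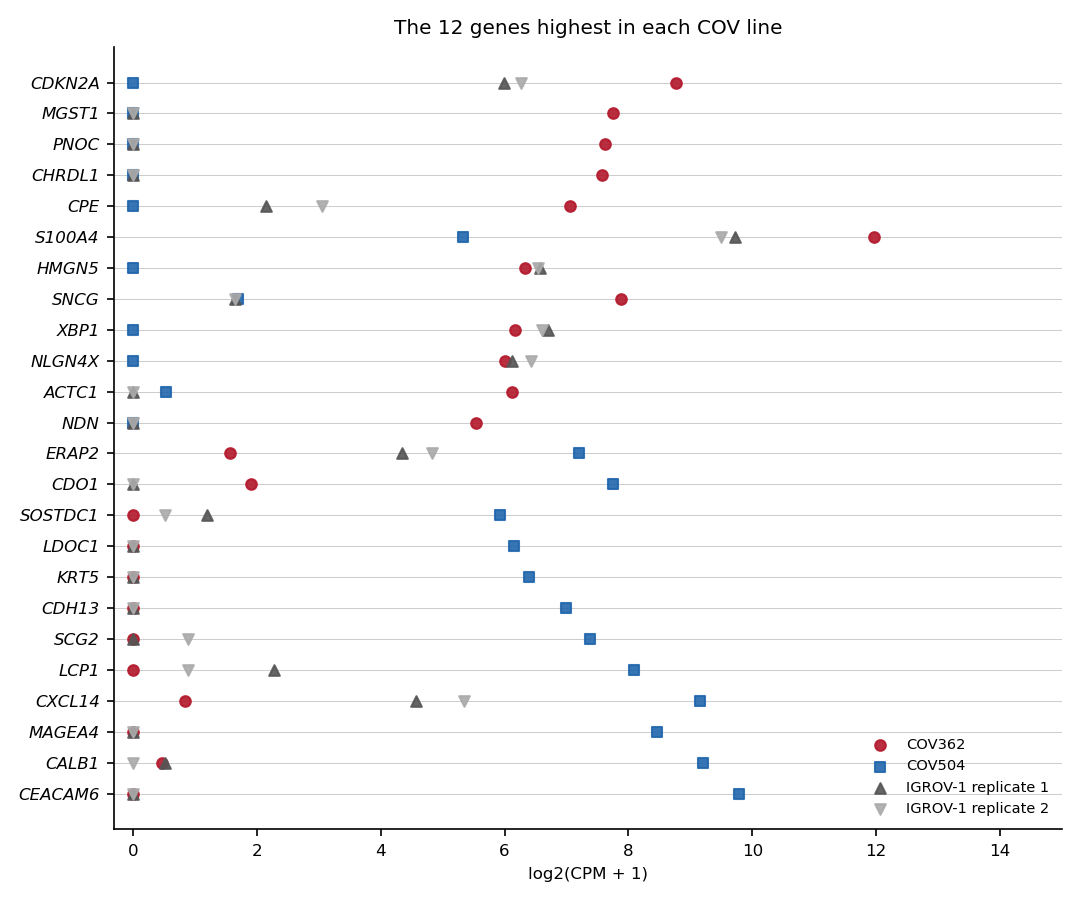
Levels, as log2(CPM + 1), of the 12 protein-coding genes highest in COV362 and the 12 highest in COV504 by ratio among called genes, with 1 point per library. The 2 IGROV-1 replicates lie near each other for most genes, and for MGST1, PNOC, CHRDL1, ACTC1, NDN, CEACAM6, MAGEA4, CDH13, KRT5, LDOC1 and CDO1 both are at 0.

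Epithelial junction genes were higher in COV504 more often than in COV362. Of 36 list members at 5 CPM or more in either line, 12 were 4-fold higher in COV504 and 4 in COV362. Over all genes the shares were 4.73% and 4.01%. The median log2 ratio of COV362 over COV504 was -1.45 for the list, against -0.12 over all genes. CDH1, E-cadherin, had 59.2 CPM in COV504 and 1.57 CPM in COV362 and was at 0 in both IGROV-1 libraries, a 37.8-fold ratio (interval 14.4 to 141, edgeR adjusted p = 8.6e-04). ST14, the membrane protease matriptase, had 99.2 CPM in COV504 and 1.96 CPM in COV362. The tight junction genes CLDN7 (80.1 against 5.09 CPM) and CGN (27.1 CPM against 1 count) were higher in COV504 as well. The 4 members past 4-fold in the other direction were all claudins: CLDN4 had 179 CPM in COV362 and 42.7 CPM in COV504, CLDN16 had 109 and 24.02 CPM, CLDN6 had 24.3 CPM and 0 counts, and CLDN10 had 12.5 CPM and 1 count. The junction genes past 4-fold thus included members higher in each line.

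Keratins, the intermediate filaments of epithelia, summed to 1911 CPM in COV362 and 9714 CPM in COV504. Of 10 members at 5 CPM or more, 5 were 4-fold higher in COV504 and 0 in COV362, beside 8.74% of all genes in either direction, with a median log2 ratio of -2.24. KRT8 had 498 CPM in COV362 and 3274 CPM in COV504 (6.57-fold, interval 6.19 to 6.98, edgeR adjusted p = 4.9e-04). KRT15 had 3 counts in COV362 and 38.7 CPM in COV504, and KRT17 had 2 counts and 15.6 CPM. KRT18, the partner of KRT8, had 570 CPM (569.6) in COV362 and 4627 CPM in COV504 but was not called, and it differed between the IGROV-1 replicates themselves, at 263 and 1041 CPM. The keratin sum of those replicates also differed, at 590.3 and 1367 CPM, so this sum varied widely between replicates of 1 line.

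Mesenchymal genes did not follow the epithelial ones as a mirror image. Of 30 list members at 5 CPM or more, 2 were 4-fold higher in COV362, S100A4 and COL1A2, and 9 in COV504. Over all genes the shares were 4.01% and 4.73%. The median log2 ratio of the list was -0.96. COL1A2, a chain of type I collagen, had 429 CPM in COV362 and 31.6 CPM in COV504 (13.6-fold, edgeR adjusted p = 1.6e-04), while COL1A1, the other chain, had 4.31 CPM in COV362 and 81.4 CPM in COV504. VIM, the intermediate filament of mesenchymal cells, had 2637 CPM in COV362 and 808 CPM in COV504, with 505 and 457 CPM in IGROV-1, a 3.26-fold ratio that the test called (adjusted p = 6.8e-04). TGFBI, a secreted adhesion protein, had 16.1 CPM in COV362 and 385 CPM in COV504. PDPN, a membrane mucin from the list of fibroblast markers, had 7.44 CPM in COV362 and 363 CPM in COV504. The fibroblast markers as a list summed to 654 CPM in COV362 and 676 CPM in COV504, with DCN at 0 in both. COV504 thus held more CDH1 and keratin together with more TGFBI and PDPN, and COV362 held more VIM and COL1A2.

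Basement membrane genes, integrins and genes of the plasminogen and kallikrein list were also 4-fold higher in COV504 more often than in COV362, beside 4.73% of all genes higher in COV504 and 4.01% in COV362. Of 20 basement membrane genes, 7 were 4-fold higher in COV504 and 1 in COV362, with COL4A2 at 76.1 against 9.01 CPM and LAMA4 at 49.8 against 7.05 CPM. LAMA1 was the member higher in COV362, with 7.44 CPM and 0 counts in COV504. Of 12 integrins, 4 were 4-fold higher in COV504 and 1 in COV362. ITGB4, the hemidesmosome subunit, had 172 CPM in COV504 and 18.8 CPM in COV362, and ITGA9 had 11.4 CPM in COV362 and 2 counts in COV504. Among 16 genes of the plasminogen system and the kallikreins, with matrix proteases in the same list, 8 were 4-fold higher in COV504 and 2 in COV362. PLAUR, the urokinase receptor, had 93.4 CPM in COV504 and 4.70 CPM in COV362, and MMP14, a membrane matrix protease, had 36.5 CPM and 0 counts. SERPINB5, the serpin maspin, had 67.2 CPM in COV504 and 2 counts in COV362. MMP7, matrilysin, went the other way with 152 CPM in COV362 and 12.5 CPM in COV504 (adjusted p = 8.4e-04).

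Chemokine and cytokine genes summed to 536 CPM in COV362 and 2081 CPM in COV504, and the IGROV-1 replicates differed between themselves at 366 and 681 CPM. Of 18 members at 5 CPM or more, 7 were 4-fold higher in COV504 and 1 in COV362, 44.4% of the list beside 8.74% of all genes. Besides CXCL14, the neutrophil chemokines CXCL8 (138 against 7.44 CPM), CXCL6 (96.5 against 3.53 CPM) and CXCL5 (34.7 against 1.57 CPM) were higher in COV504 and were called, with 0 in both IGROV-1 libraries. The 1 member past 4-fold in COV362 was CXCL10, at 9.40 CPM with 1.33 CPM in COV504, which was not called (adjusted p = 0.052). CCL5 was called in that direction at 22.3 CPM in COV362 and 7.12 CPM in COV504, below 4-fold.

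Interferon-stimulated genes were called higher more often in COV504. Of 35 members tested, edgeR called 14 higher in COV504 and 5 in COV362, 54.3% of the list beside 25.2% of all genes tested. Over all 13030 genes tested, edgeR called 1699 higher in COV504 and 1587 in COV362. Such calls depend on the libraries that supply the spread. The list had a median log2 ratio of -0.65 and sums of 7123 CPM in COV362 and 12817 CPM in COV504. Of the same 35, 3 were 4-fold higher in COV504 and 0 in COV362, which is 8.57% of the list against 8.74% of all genes, so the share past 4-fold was close to the background. IFITM1, which blocks viral entry, had 1578 CPM in COV504 and 315 CPM in COV362, and IFI6 had 1089 and 228 CPM. IFIT3 and OASL were called in the other direction, with IFIT3 at 342 CPM in COV362 and 98.3 CPM in COV504 and OASL at 63.5 and 17.8 CPM. Both lines stood far above IGROV-1 for these genes: IFIT3 had 3.42 and 3.87 CPM there and OASL had 0. Of 20 genes of MHC and antigen loading, 3 were 4-fold higher in COV362 and 4 in COV504. The 3 in COV362 were of class II, namely HLA-DRA at 23.9 CPM against 2 counts, HLA-DRB1 at 11.8 CPM against 2 counts, and HLA-DMA at 17.6 against 1.78 CPM. Those in COV504 included the class I gene HLA-F (109 against 23.9 CPM), PDIA3 of the peptide loading complex (655 against 157 CPM) and NLRC5, the class I transactivator (13.4 CPM against 3 counts). HLA genes are polymorphic and similar in sequence, so their counts are uncertain, and the part of alleles in these differences was not tested.

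Of 23 genes that regulate the G1 phase of the cell cycle, 4 were 4-fold higher in COV362 and 1 in COV504, which is 21.7% of the list against 8.74% of all genes. Besides CDKN2A, those higher in COV362 included MYC (144 against 31.1 CPM, adjusted p = 5.3e-04) and E2F2 (9.40 CPM against 2 counts). The member higher in COV504 was RB1, the pocket protein on which p16 acts, at 61.0 CPM in COV504, 2.74 CPM in COV362, and 34.2 and 33.9 CPM in the IGROV-1 replicates (22.2-fold, interval 10.5 to 56.3, adjusted p = 4.6e-04). CDKN2A and RB1 were thus each near or at 0 in one line, and in opposite lines. CCND1, cyclin D1, did not differ by more than counting error, at 357 CPM in both. Of 37 genes of S and M phase, 0 passed 4-fold in either direction and the median log2 ratio was 0.00 as measured and 0.11 with TMM-scaled CPM. The largest called differences there were near 2-fold, with CDK1 at 119 against 62.7 CPM and TK1 at 237 against 499 CPM.

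Of 17 Muellerian and ovarian lineage factors tested, edgeR called 6 higher in COV362 and 0 in COV504. That is 35.3% of the list beside 25.2% of all genes tested, where 1587 were called higher in COV362 and 1699 in COV504. Of the 12 factors at 5 CPM or more, 1 was 4-fold higher in COV362 and 0 in COV504, with a median log2 ratio of 0.82. The share of factors past 4-fold, 8.33%, was thus close to the 8.74% of all genes. The member past 4-fold was EMX2, a homeobox gene of the urogenital tract, at 135 CPM in COV362, 4.45 CPM in COV504 and 0 in IGROV-1 (30.3-fold, interval 16.3 to 63.7). SOX17 (98.3 against 26.3 CPM) and MEIS1 (126 against 31.1 CPM) were called in the same direction. Of 16 HOX genes, 5 were 4-fold higher in COV504 and 0 in COV362, among them HOXC10 at 16.5 CPM with 0 counts in COV362 and HOXA10 at 23.6 against 2.35 CPM. Of 19 ovarian tumour antigens, 5 were 4-fold higher in COV362 and 1 in COV504. The median log2 ratio of the antigen list was 0.15, and its sum was 2203 CPM in COV362 and 2475 CPM in COV504. MUC1 had 212 CPM in COV362 and 34.7 CPM in COV504, MSLN, mesothelin, had 83.1 and 16.9 CPM, and SLC34A2, a phosphate transporter, had 27.4 CPM and 0 counts. CP, ceruloplasmin, was the member higher in COV504, at 62.3 against 11.4 CPM.

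Among DNA repair genes the lines were close, with 1 of 32 members past 4-fold. That member was MGMT, which removes alkyl groups from guanine, at 70.9 CPM in COV362, 3.56 CPM in COV504, and 10.2 and 9.45 CPM in IGROV-1 (19.9-fold, interval 9.90 to 46.8, adjusted p = 1.9e-04). FANCL, a Fanconi anaemia ubiquitin ligase, was called below 4-fold (63.9 against 24.9 CPM). Of the 10 S100 genes, 2 were 4-fold higher in COV362, S100A4 and S100A1 (372 against 11.6 CPM). Of the 12 imprinted genes, 2 were 4-fold higher in each line: NDN and MEST in COV362, and H19 and PHLDA2 in COV504. H19, a noncoding RNA of the maternal allele, had 123 CPM in COV504 and 0 in COV362 and IGROV-1, and MEST had 853 CPM in COV362 and 153 CPM in COV504. Aldehyde dehydrogenases had 1 member past 4-fold in each direction, and ALDH1A1, a marker of stem-like ovarian cancer cells, had 46.7 CPM in COV504, 2 counts in COV362, and 2140.0 and 2067 CPM in IGROV-1. Wnt pathway genes had 3 of 22 past 4-fold in each direction, with LGR5, a receptor of R-spondins, higher in COV362 (67.8 against 10.7 CPM) and DKK3 higher in COV504 (143 against 23.5 CPM). ERBB receptors and ligands had 2 of 11 higher in COV504, ERBB2 (33.4 against 5.88 CPM) and ERBB3 (14.2 against 2.35 CPM). The NRF2 response list had 1 of 24 past 4-fold, the glycolysis list 2 of 30 and the IGF system 0 of 12, all below the 8.74% of all genes. Of the remaining lists, complement had 2 of 11 members past 4-fold, both higher in COV362, namely SERPING1, the C1 inhibitor (40.4 against 4.45 CPM), and C1R, a protease of the classical pathway (104 against 14.7 CPM). Cancer testis antigens had 2 of 5, MAGEA4 and MAGEA11 (16.9 CPM in COV504 with 0 counts in COV362), and contractile isoform genes had 2 of 19, all higher in COV504. Epithelial splicing targets had 1 of 19 and metallothioneins 0 of 5.

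**Figure D3:**
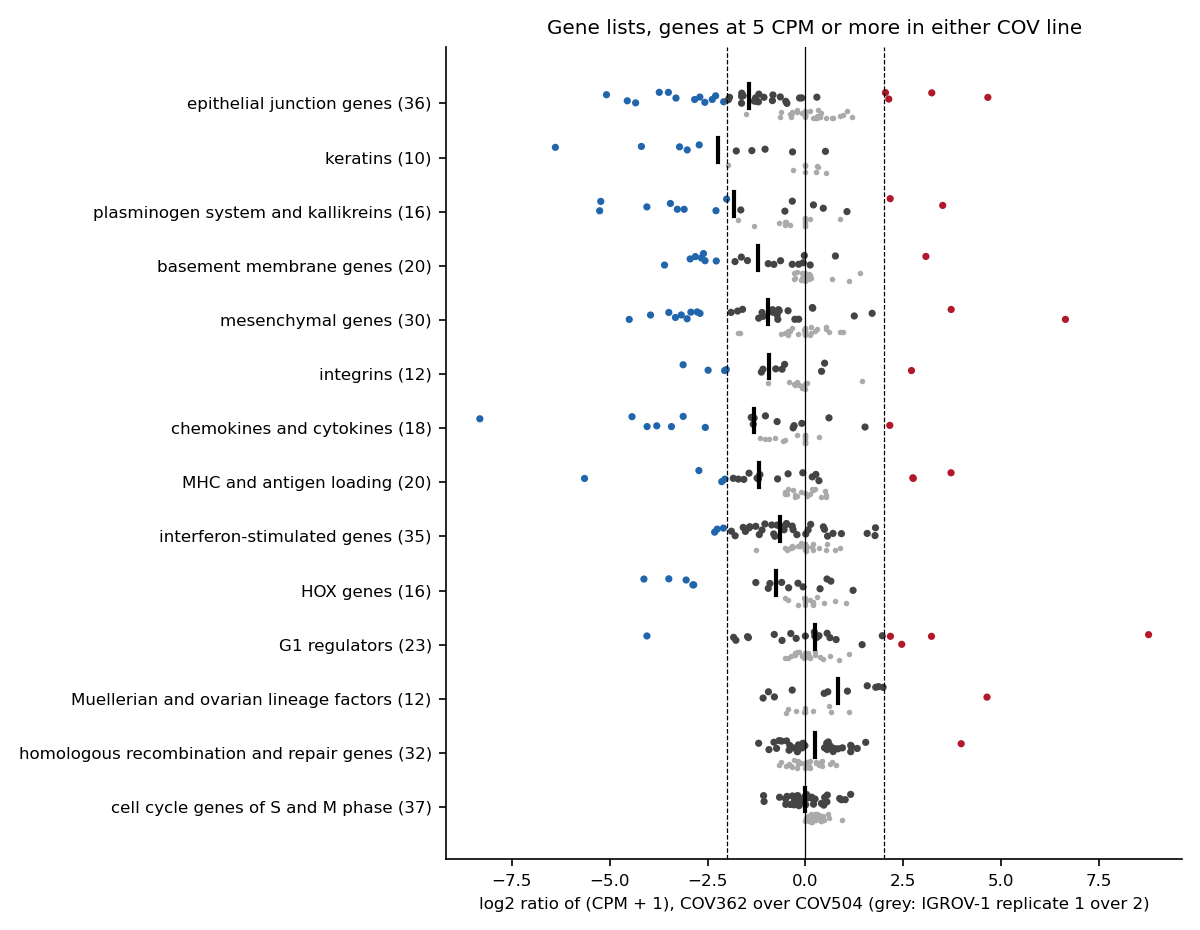
Log2 ratio of (CPM + 1) of COV362 over COV504 for members of 14 gene lists at 5 CPM or more in either line, with the number of such members in brackets, 1 point per gene and a black bar at the median. Red and blue mark 4-fold or more, dashed lines mark 4-fold, and grey points give IGROV-1 replicate 1 over replicate 2 for the same genes. Epithelial junction genes, keratins and the plasminogen list have the lowest medians of the lists drawn, at -1.45, -2.24 and -1.83, and no grey point reaches 4-fold.

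Against IGROV-1, the COV lines shared far more changes than they opposed. In edgeR, 5544 genes (42.5%) were called between COV362 and IGROV-1 PromethION and 5672 (43.5%) between COV504 and IGROV-1, and 3424 were called in both. Of these, 3211 went the same way and 213 the opposite way. Both comparisons use the same IGROV-1 libraries, so a shared direction is in part built in, and the counts are a description. The share of mitochondrial ribosomal RNA was 3.08% in COV362 and 3.31% in COV504 but 9.13% and 10.9% in the IGROV-1 libraries, and its part in these counts was not tested. Shared high genes with levels within 1.5-fold of each other included MT1E, a metallothionein (392 CPM in COV362, 531 CPM in COV504), CDH6, kidney cadherin (360 and 405 CPM; 359.6 to one decimal in COV362), TNFSF10, the death ligand TRAIL (297 and 316 CPM), and DPYSL3 (192 and 211 CPM), all at 0 in both IGROV-1 libraries. S100A16 and SERPINE2 completed the 6, at 327 to 500.3 CPM in the COV lines and 1.71 CPM or less in IGROV-1. Shared low genes included SCIN, an actin-severing protein, at 681 and 688 CPM in IGROV-1, SERPINF1 at 168 and 164 CPM, and LIN28A, a blocker of let-7 processing, at 110 and 173 CPM (109.8 for the first), each with 0 counts in both COV lines. ZIC2, EPHA3 and PKDCC had 0 or 1 count in each COV line and 102 to 162 CPM in IGROV-1.

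Of the 213 opposing genes, 95 were higher than IGROV-1 in COV362 and lower in COV504, and 118 were the reverse. Those ranked highest by the naming rule in the first direction included CPE, CDKN2A and S100A4, described above, with ST6GAL1, a sialyltransferase (42.3 CPM in COV362, 0 in COV504, 3.42 and 1.72 CPM in IGROV-1), ZSCAN18 (29.4 CPM, 0, 2.99 and 3.01 CPM) and C1orf186 (12.9 CPM, 0, 3.42 and 2.15 CPM). Those ranked highest in the reverse direction included CXCL14 and ERAP2, described above, with CTSV, a lysosomal protease (8.23 CPM in COV362, 125 CPM in COV504, 35.9 and 35.7 CPM in IGROV-1), SIGIRR, a brake on interleukin-1 receptor signalling (3.53, 67.6, 14.1 and 16.8 CPM), and C8orf4 (0.392, 28.9, 5.55 and 4.72 CPM).

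Within genes, few differences in transcript use were called between the 2 lines. The test recovered 37% of genes changed by log2 2 in simulation, so genes not called may still differ. The usage test (edgeR, Simes p per gene) called 21 of 4730 genes (0.444%), and 469 genes had an unadjusted p under 0.05. Of 3622 genes with 50 or more counts in both libraries, the leading transcript differed in 215 (5.94%, 95% Wilson interval 5.21 to 6.75), against 152 of 3904 (3.89%) between the IGROV-1 replicates. When the leading transcript had to be ahead by 20 percentage points in both libraries, 22 of 3024 genes (0.728%, interval 0.481 to 1.10) differed between the COV lines and 4 of 3325 (0.120%) between the replicates. Of those 22 genes, 3 were called by the usage test: MEST, PARP2 and ADAM15.

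For MEST, ENST00000223215, the transcript with the 26 opening bases printed above, held 82.0% of 2178 counts in COV362 (interval 80.3 to 83.6) and 0.511% of 344 counts in COV504, with 0.627% and 0.514% in the IGROV-1 replicates (adjusted p = 1.5e-06). Among the other lines OVKATE held 70.3% and OVTOKO 25.8% of its counts in that transcript. ENST00000341441 held 89.6% in COV504 and 7.29% in COV362. For PARP2, ENST00000250416, with the 39 extra coding bases, held 97.8% of 75 counts in COV504 (interval 90.8 to 99.3) and 2.47% of 64 counts in COV362, and ENST00000429687, without them, held 97.5% in COV362 and 0.680% in COV504. The IGROV-1 replicates were like COV362, at 97.4% and 96.8% for ENST00000429687, and SK-OV-3, another line of the series, held 42.6% of the longer form. PARP2 itself did not differ in level (25.1 against 33.4 CPM, adjusted p = 0.50). Its usage call rests on few counts and was lost in 3 of 9 alternatives, namely with the 8 PromethION libraries alone and without MinION replicate 1 or MinION replicate 2, where the adjusted p reached 0.112.

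For ADAM15, ENST00000360674, which lacks the 70 bases printed above, held 72.2% of 273 counts in COV504 (interval 66.6 to 77.1), about 0% of 108 counts in COV362 (upper bound 3.43%) and 2.82% or less in the IGROV-1 PromethION replicates. ENST00000271836, which has them, held 80.0% in COV362 and 25.6% in COV504 (adjusted p = 0.0013, and 0.0682 without MinION replicate 2). The 70 bases are not a whole number of codons. For TSPAN3 it was COV362 that stood apart: ENST00000424443, without the 192 bases, held 44.7% of 495 counts in COV362 (interval 40.3 to 49.1) and 0.429% of 1310 counts in COV504, and between 0.225% and 2.79% in the other 8 libraries (adjusted p = 3.1e-04). Other genes called with large share differences were SNU13, HNRNPU, KIAA1522, IFI27 and HLA-C. In SNU13, ENST00000355257 held 63.0% in COV362 and 99.2% in COV504, against 77.6% and 78.2% in IGROV-1. In HNRNPU, ENST00000638716 held 14.99% in COV362 and 1.23% in COV504, while the IGROV-1 libraries ran from 5.35% on the PromethION to 18.9% on the MinION, a smaller instrument. In KIAA1522, ENST00000373481 held 36.04% and 77.5%, and the adjusted p was 0.04998. KIAA1522 was called in 3 of 9 alternatives. In IFI27, ENST00000618863 held 7.70% of 3121 counts in COV362 and 26.5% of 4820 counts in COV504 (adjusted p = 0.016). The IGROV-1 PromethION libraries had 5 and 4 counts of IFI27, too few for a replicate background, and the gene was called in 3 of 9 alternatives. For HLA-C, ENST00000383329 held 29.2% in COV362 and 0.882% in COV504. The part of alleles in these shares was not tested.

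**Figure D4:**
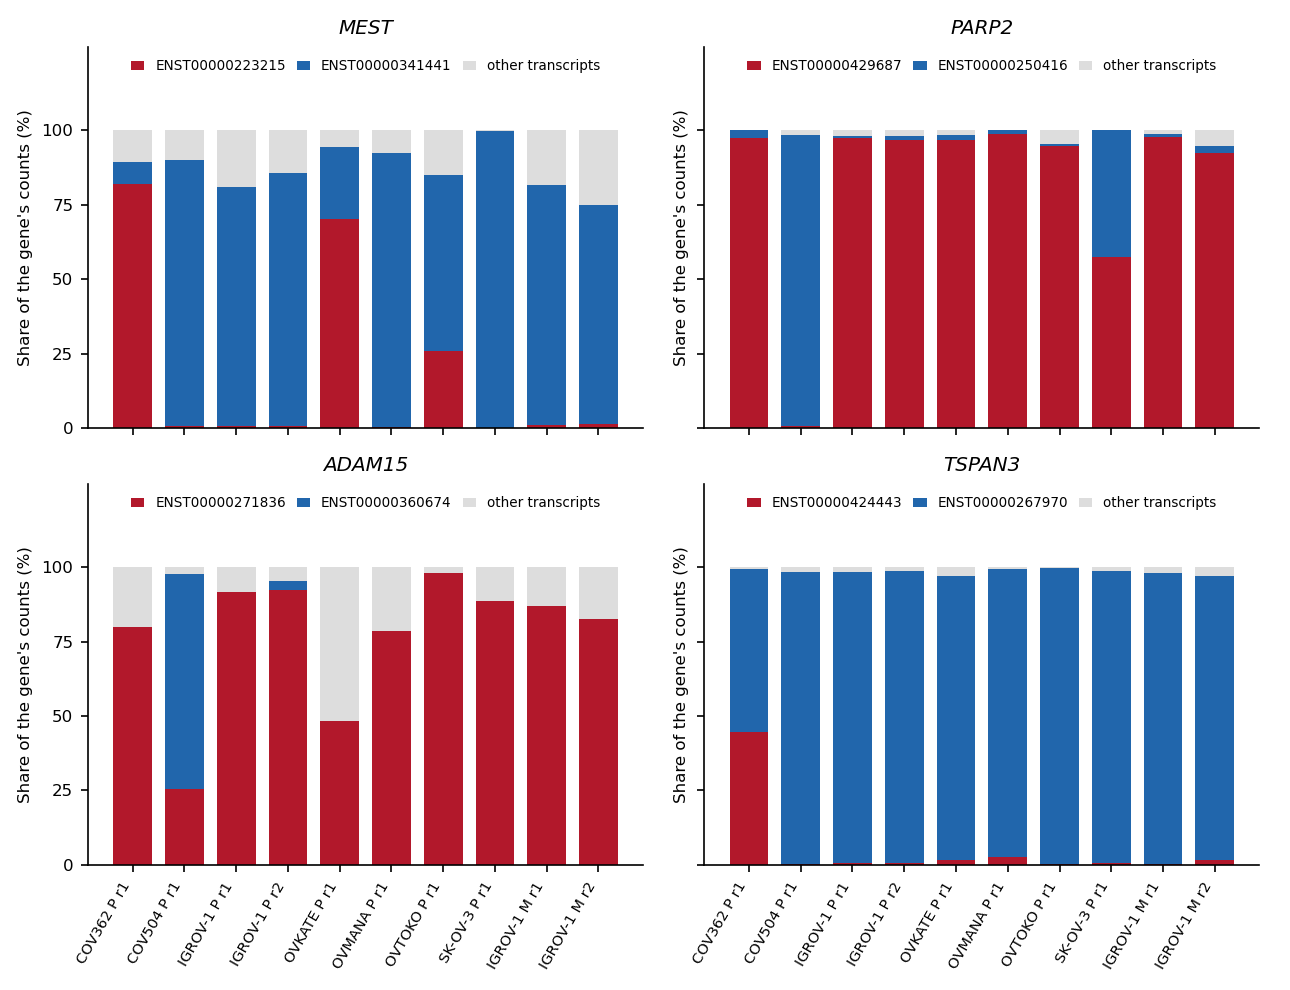
Share of each gene's counts in percent held by 2 transcripts of MEST, PARP2, ADAM15 and TSPAN3 in each of the 10 libraries, with other transcripts in grey (P, PromethION; M, MinION; r1 and r2, replicates). COV362 stands apart from COV504 in all 4 genes, and in PARP2 and ADAM15 it is COV504 that differs from IGROV-1.

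Levels also differed by chromosome. The median log2 ratio of COV362 over COV504 was -0.88 over 152 genes of chromosome 18, -0.73 over 176 genes of chromosome 13, -0.67 over 289 genes of chromosome 20, -0.61 over 484 genes of chromosome 16 and -0.58 over 597 genes of chromosome 17. Over all 10396 genes of these chromosome counts the median was -0.12, and 54.9% were lower in COV362. On chromosome 13, 83.0% of genes were lower in COV362, RB1 among them. The median was 0.43 over 406 genes of chromosome 10, where EMX2, MGMT, VIM and SNCG lie, and 0.31 over 395 genes of chromosome 4. Between the IGROV-1 replicates the chromosome medians lay between -0.04 and 0.02. DNA copy number was not measured in these libraries, and its part in these medians was not tested.

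**Figure D5:**
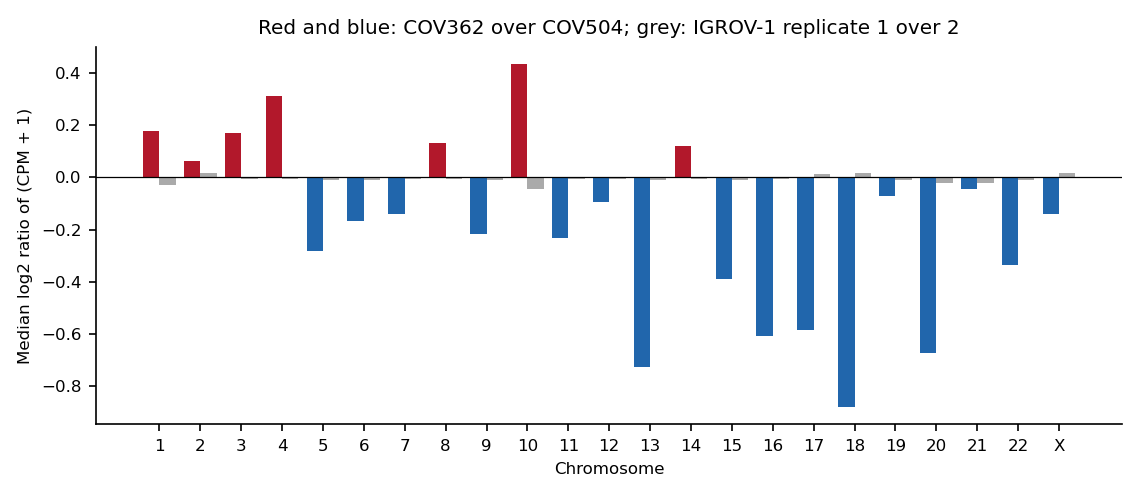
Median log2 ratio of (CPM + 1) per chromosome over genes at 5 CPM or more in either library of the pair, for COV362 over COV504 (red above 0, blue below) and for IGROV-1 replicate 1 over 2 (grey). The COV medians run from -0.88 on chromosome 18 to 0.43 on chromosome 10, and the replicate medians from -0.04 to 0.02.

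Over windows of 25 neighbouring genes the ratios were wider still. The highest window lay on chromosome 11 from 78215297 to 90192894 (GRCh38), with a median log2 ratio of 1.51, 17 of 25 genes at least 2-fold higher in COV362 and 0 at least 2-fold lower. It held NOX4, an oxidase (38.8 against 1.78 CPM), NAALAD2 (9.01 CPM against 1 count), TENM4 (47.4 against 9.79 CPM) and TMEM126A, an assembly factor of mitochondrial complex I (183 against 42.7 CPM). The next lay on chromosome 21 from 8254592 to 29175889, with 14 of 25 genes at least 2-fold higher in COV362 and 0 at least 2-fold lower. CXADR, the coxsackievirus and adenovirus receptor, had 38.0 CPM in COV362 and 1.78 CPM in COV504 there, and CYYR1, CHODL and MAP3K7CL had 8.23 to 9.40 CPM in COV362 and 0 counts in COV504. The lowest window lay on chromosome 3 from 142724074 to 151316952, with a median of -1.92 and 16 of 25 genes at least 2-fold lower in COV362 against 2 higher. RNF13 (9.01 against 127.7 CPM), PLOD2, a collagen lysyl hydroxylase (9.40 against 115 CPM), ZIC1 (7.05 against 101 CPM) and HPS3 (7.84 against 64.1 CPM) led it. The second lowest lay on chromosome 19 from 51991332 to 54012669, with a median of -1.67 and 21 of 25 genes at least 2-fold lower in COV362. Most of its genes encode zinc finger proteins at low levels, among them ZNF528 (2.35 against 22.7 CPM), ZNF766 (3.92 against 27.6 CPM), ZNF432 (1 count against 7.12 CPM) and ZNF677 (2 counts against 8.45 CPM), and such genes resemble each other enough that reads could be shared. The windows of the IGROV-1 replicates lay between -0.28 and 0.30.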

How the data were processed

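Nanopore libraries were made from total RNA with a ligation kit and an end-repair step of 30 min, per the labels' protocols. Reads were aligned with minimap2 2.24-r1122 and the build is GRCh38, per the submitters' processing notes, and no source used here names the quantification tool. For 99493 transcripts the authors deposited a TPM value and an estimated count. The deposited TPM equalled the count per 1000000 counts to within 5.6e-11, so it is not scaled by length. Counts were summed over 57110 gene identifiers, of which 722 join several genes and are not named, and rounded to whole numbers for the tests. Use of the strand in counting is unstated, and antisense, overlapping and near-identical genes (pseudogenes, keratin, HLA, MAGE, metallothionein and zinc finger families) are uncertain.

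Gene tests used edgeR 4.0.16 in R 4.3.3 (quasi-likelihood, TMM, default filter by group, two-sided, Benjamini-Hochberg) on all 10 libraries, and transcript usage its exon-level procedure on transcripts. DESeq2 1.42.0 was an alternative, with other scalings, filters, library subsets and pseudocounts. Data were simulated for this comparison from mean shares pooled over all libraries, with the same spread for every gene or transcript in a run. The COV libraries thus varied like the IGROV-1 libraries by construction. In each run 200 genes were changed. Of these, 7.5% were recovered at log2 1 and 68.5% at log2 2, with 11697 and 11703 genes tested. In the usage run at log2 2, 37% of the 200 changed genes were recovered, with 3730 genes tested. Those 200 were drawn only from genes whose second transcript was well counted. The 4-fold rule uses log2(CPM + 1), which understates the change of low genes. Intervals are exact for ratios and Wilson for shares, at 95%, and with the floor of 3 counts they cover counting error only.

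Genes were named by these rules: the 12 protein-coding genes highest in each line among called genes; up to 4 called members in each direction of 32 gene lists, with PAX8, WT1, EPCAM, CDH1, VIM and ESR1; the 6 shared and 6 opposing genes in each direction against IGROV-1; the 10 genes with the largest share difference among usage calls; and the 4 leading genes of the highest and lowest 2 windows. KRT18, CCND1, CXCL10 and the marker genes of other cells were named after their values were seen. The members and lists were chosen with earlier results of these data known. Of 831 list entries, 44 fell in joined identifiers and 1 was not found. The IGROV-1 PromethION replicates differed by more than counting noise (chi-square per degree of freedom 4.36 over 9673 genes). Mitochondrial, Y-linked and XIST genes were not named by rank. Some items that these rules select are not reported here.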

Additional observations from a re-analysis of the deposited data

Results flagged for a closer look

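The 11 genes below were picked because edgeR called them in opposite directions from IGROV-1 in the 2 COV lines. The direct contrast of COV362 against COV504 uses the same fit and the same COV libraries. Its sign therefore follows from the choice of genes, and its adjusted p values add no separate support. The values are log2 changes of that contrast, COV362 over COV504. For a gene with 0 counts in one line the fitted change depends on the prior count and is no bound. Higher in COV362 were CDKN2A at 13.12 (adjusted p = 1.0e-04), CPE at 11.4 (1.6e-04), ST6GAL1 at 9.76 (4.9e-04), ZSCAN18 at 9.23 (4.6e-04), C1orf186 at 8.05 (0.0047) and S100A4 at 6.8 (5.8e-05). Higher in COV504 were CXCL14 at -9.29 (1.3e-04), ERAP2 at -6.07 (1.6e-04), C8orf4 at -5.92 (4.5e-04), SIGIRR at -4.12 (4.7e-04) and CTSV at -3.8 (1.6e-04). In each alternative fit run the direction of all 11 was the same, and 11 were called except in the fit of 4 libraries, which called 0 with adjusted p up to 0.0867, and in DESeq2, which called 10. With 1 library for each COV line, no replicate of those lines checks these values, and the alternative fits reuse the same libraries.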

How the results depend on the processing

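The count of edgeR calls between the lines, 3286 (1587 higher in COV362 and 1699 higher in COV504), was 1954 (883 and 1071) with the 8 PromethION libraries, 546 (237 and 309) with DESeq2, 0 (0 and 0) with 4 libraries, and 583 to 4067 (240 to 2012 and 343 to 2055) when 1 IGROV-1 library was left out. With IGROV-1 replicate number as a replicate block it was 5599 (2813 and 2786). With this block the spread fitted by edgeR for genes, as a coefficient of variation, fell from 11.7% to 3.19%. The numbers were not taken as pairing the libraries, and whether same-numbered libraries share a source was not tested. The deviations of same-numbered PromethION and MinION libraries correlated at 0.40 over 9376 genes, from a single pair of pairs. Usage calls, 21 at first, were 101 by the gene-level F test, 9 with PromethION libraries only, 11 with 4 libraries, 74 with the replicate block, and 7 to 13 with a library left out. Genes shared in direction against IGROV-1, 3211, were 995 in DESeq2, 1560 with 4 libraries and 2332 to 3120 with a library left out, and opposing genes, 213, were 130 without a filter, 125 with PromethION libraries only, 492 with the replicate block, 19 in DESeq2, 45 with 4 libraries, 140 at equal depth and 90 to 130 with a library left out. For these counts the 4-library and equal-depth settings were chosen after seeing the data. The 950 genes past 4-fold became 343 (119 and 224) with a pseudocount of 5 CPM and 457 (156 and 301) at 20 CPM or more. The share of genes with another leading transcript, 5.94%, was 7.54% at 20 counts, 4.55% at 100 counts and 0.728% with the margin. The highest and lowest windows were 2.02 (on chromosome 21) and -2.41 over 15 genes. Over 50 genes they were 1.24 (on chromosome 8) and -1.56 (on chromosome 19). With a pseudocount of 5 CPM the highest was 1.32, on chromosome 21, and at 20 CPM or more it was 1.55, on chromosome 11. The cause of these shifts was not tested. No named gene reversed. Of 249 called log2 changes of named genes, 205 were lost with 4 libraries, 86 in DESeq2, 40 with PromethION libraries only, 30 without a filter, 21 at equal depth, 9 with library totals, 3 with RLE factors, 117 without MinION replicate 1 and 50 without MinION replicate 2. In DESeq2 only 133 of all 252 log2 changes of named genes kept their result, because those neither kept nor lost had no adjusted p. At 1 library a line, ratios of genes near 5 CPM rest on about 10 counts.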

Other observations

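A set of genes was present in both COV lines and low in the other 5 lines. With a rule set after the data were seen, namely 20 CPM or more in both lines and at least 4-fold above the highest of the other 5 lines on the log2(CPM + 1) scale, 18 genes were found for the COV pair, against 0 to 25 (median 3.5) for the other 20 pairs, of which OVMANA with OVTOKO had the 25. CCL2, a monocyte chemokine, had 34.9 CPM in COV362 and 384 CPM in COV504, and TMEFF2 and GBP4 had 22.2 to 52.1 CPM, all with 0 counts in the first library of each other line. The set also held LYPD1 (87.8 and 109.9 CPM), SMR3B (78.4 and 203 CPM), the matrix genes TNC (156 and 64.5 CPM), BGN (30.2 and 189 CPM) and NID1 (23.1 and 66.3 CPM), and LGR6 (29.8 and 71.2 CPM). Of the 18, 4 were members of the interferon-stimulated list: IFIT1 (319 and 215 CPM), IFI44L (78.0 and 109.9 CPM), OAS2 (56.8 and 89.9 CPM) and DDX60 (50.9 and 36.04 CPM). The reverse rule found 1 gene for the COV pair, SCD5, a fatty acid desaturase, at 2.74 and 4.004 CPM against 35.96 to 89.0 CPM in the other lines.

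In COV504, 7 neighbouring genes of chromosome 14 between 50312329 and 51096061 (GRCh38), each with a median of 5 CPM or more over the other 9 libraries, had 0 counts: ATP5S, MAP4K5, SAV1, NIN, PYGL, ABHD12B and TRIM9. In COV362, PYGL, the liver glycogen phosphorylase, had 42.7 CPM, SAV1, a Hippo pathway scaffold, 19.98 CPM, and NIN, a centrosomal protein, 13.7 CPM, while ABHD12B had 0 counts and TRIM9 had 1. In IGROV-1, PYGL had 184 and 185 CPM. The stretch was chosen after its values were seen, and DNA was not measured.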
